A study of Mus musculus with 15 samples.

Results

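The genes described here are the immediate early transcription factor genes of the AP-1, Egr and Nr4a families: Fos, Fosb, Jun, Junb, Jund, Egr1, Egr2, Egr3, Nr4a1 and Nr4a2. They were chosen by name, with earlier results of these data known. A gene was measured where a probe set of the array was annotated with that symbol alone. Of the 10 genes, 9 had such a probe set, 1 each, out of 19296 genes in the table. The expression of Jund was not analysed here. Expression was measured on 15 Affymetrix mouse arrays of bone marrow cells sorted from C57Bl/6 mice, with no genetic change or treatment named in the labels and every sample labelled male. Both populations were lineage-negative and carried c-Kit. Haematopoietic stem cells (HSC) were further sorted for Sca-1 and CD150 and against Flk2 and CD48, and granulocyte/macrophage progenitors (GMP) for CD34 and the Fc gamma receptor and against Sca-1. There were 5 arrays of HSC and 4 of GMP from young mice of 6 to 12 weeks, and 3 arrays each of HSC and GMP from old mice of 22 to 30 months. It is not stated whether each sample came from 1 mouse or from a pool, and the tests below therefore reflect array-to-array spread, part of which may be technical.

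Immediate early genes are switched on within minutes of a signal, without new protein synthesis, by factors already present in the cell, such as serum response factor with its Elk partners and the cAMP response factor CREB. Fos and Jun proteins pair through leucine zippers to form AP-1, and the Jun proteins can also pair with each other. Egr proteins bind GC-rich DNA through zinc fingers, and the Nr4a proteins are orphan nuclear receptors that act without a known natural ligand. In mouse haematopoiesis Egr1 and the Nr4a genes are known for holding stem cells in quiescence, Junb for limiting their expansion, and Egr1 and Egr2 for favouring the macrophage branch of the myeloid lineage.

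Promoter sequences are shown as examples for 4 of the genes: Nr4a1 and Nr4a2 (cell types), Fos (AP-1, although Fosb differed more) and Egr2 (age). They were taken from RefSeq, build GRCm38.p6, as the 250 bases before and 50 bases after the listed start, 5′ to 3′ on the gene's strand, and positions are counted from the start. Capitals mark the motifs that were searched on both strands: the core of the cAMP response element (TGACG), the AP-1 site (TGANTCA), the Egr site (GCGNGGGCG), the Nr4a monomer element NBRE (AAAGGTCA) and the CArG box, which serum response factor binds. The sequences lie at chr12:85473640-85473939, plus strand, for Fos, at chr10:67537619-67537918, plus strand, for Egr2 (number 3 of 5 listed starts), at chr15:101266596-101266895, plus strand, for Nr4a1 and at chr2:57123954-57124253, minus strand, for Nr4a2.
Fos: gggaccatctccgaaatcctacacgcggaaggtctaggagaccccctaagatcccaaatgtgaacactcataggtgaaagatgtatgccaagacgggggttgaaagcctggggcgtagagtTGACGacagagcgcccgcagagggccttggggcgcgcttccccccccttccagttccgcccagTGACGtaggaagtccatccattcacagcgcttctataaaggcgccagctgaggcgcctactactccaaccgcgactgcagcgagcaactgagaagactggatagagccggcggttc
Egr2: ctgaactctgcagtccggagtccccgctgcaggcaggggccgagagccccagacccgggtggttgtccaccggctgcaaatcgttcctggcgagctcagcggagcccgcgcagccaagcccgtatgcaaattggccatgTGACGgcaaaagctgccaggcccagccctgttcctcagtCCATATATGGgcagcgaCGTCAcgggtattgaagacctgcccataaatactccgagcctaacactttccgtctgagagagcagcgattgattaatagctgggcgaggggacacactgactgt
Nr4a1: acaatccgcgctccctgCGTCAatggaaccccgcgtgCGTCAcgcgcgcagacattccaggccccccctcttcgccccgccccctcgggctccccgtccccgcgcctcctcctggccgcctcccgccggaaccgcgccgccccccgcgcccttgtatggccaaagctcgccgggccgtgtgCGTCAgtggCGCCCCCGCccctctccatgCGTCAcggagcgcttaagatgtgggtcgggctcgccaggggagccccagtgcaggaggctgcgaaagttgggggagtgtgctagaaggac
Nr4a2: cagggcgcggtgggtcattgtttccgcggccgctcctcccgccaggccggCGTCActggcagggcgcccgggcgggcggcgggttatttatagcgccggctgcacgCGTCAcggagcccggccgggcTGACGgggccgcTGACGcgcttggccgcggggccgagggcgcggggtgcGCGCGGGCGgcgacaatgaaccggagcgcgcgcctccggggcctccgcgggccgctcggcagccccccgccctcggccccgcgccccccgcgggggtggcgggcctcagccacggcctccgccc

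The cAMP response core occurred 4 times each in the Nr4a1 and Nr4a2 windows, 2 times in that of Fos, at -129 and -66, and 2 times in that of Egr2. It occurred 1 time each in the windows of Fosb and Junb. The windows of Jun and Jund and of starts 1 and 2 of Egr2 did not hold it. Of 32817 promoter windows of the same length, 20.8% held the core at least 1 time. The Egr2 window also held a CArG box at -72, a motif present in 1.63% of all windows. An Egr site lay at -60 in Nr4a1, at -74 in Nr4a2 and at -50 in Fosb, against 5.56% of all windows. The AP-1 site (7.81% of all windows) and the NBRE (1.51%) were not found in the windows of Fos, Fosb, Jun, Junb, Jund, Nr4a1 or Nr4a2. Nor were they found at any of the 5 starts of Egr2. Windows of Egr1 and Egr3 were not searched. The matches describe the letters of the windows and were not tested for binding.

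The arrays had medians from 7.26 to 7.42 log2, but the interquartile range within an array ran from 1.96 to 2.69 log2, with 1.96 to 2.33 in old HSC against 2.21 to 2.69 in young HSC. All 6 measured HSC markers (of 8 listed) were higher in HSC than in GMP and all 8 GMP and granulocyte markers lower, at both ages, without overlap. The labels call every sample male, but Xist, the RNA of the inactive X chromosome, ranged from 8.92 to 11.5 log2 on 7 of the 9 young arrays, against 5.46 to 5.84 in all old samples. The remaining young arrays, HSC replicate 1 and GMP replicate 1, were at 4.72 and 5.49. High Xist did not always go with low Y-linked signal, taken as the mean of Kdm5d, Eif2s3y and Uty. That mean was 8.45 to 8.80 log2 on the old arrays. It was 8.47 and 8.42 on young HSC replicates 3 and 5 and 8.28 on young GMP replicate 3. Replicate 2 was at 7.12 in young HSC and 7.20 in young GMP, and replicate 4 at 4.94 and 5.20. The sex make-up of the samples was not tested. Transcript levels came from sorted populations in bulk, in which fewer expressing cells and less RNA per cell cannot be told apart.

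The comparison of HSC with GMP showed these genes as a group higher in stem cells. Nr4a1, Nr4a2 and Egr1 were 4.93-fold to 7.47-fold higher in HSC, at both ages, and Fos, Fosb and Jun were 1.66-fold to 3.31-fold higher. Of the 9 genes, 7 were called higher in HSC of young mice (limma, Benjamini-Hochberg adjusted p under 0.05, called from here on), where 13.6% of all genes were called higher, and 8 in old mice, where 9.25% were. None of the 9 was called lower, against 10.9% of all genes in young and 13% in old mice. The values of HSC lay above those of GMP without overlap for 6 genes in young mice (11.7% of all genes) and for all 9 in old mice (16.3%). The median difference of the 9 was 0.78 log2 in young and 1.30 in old mice, against -0.05 and 0.02 over all genes. Egr3 was called at neither age.

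Nr4a1, whose protein is also known as Nur77, had values of 10.73, 9.82, 10.26, 10.19 and 9.86 log2 on the young HSC arrays and 9.73, 10.37 and 10.24 on the old HSC arrays. In GMP it lay at 7.42, 7.33, 7.64 and 7.26 in young and at 7.44, 7.19 and 7.21 in old mice. The HSC and GMP values did not overlap. The difference was 2.76 ± 0.17 log2 in young mice (SE; 6.76-fold, adjusted p = 2.25e-10) and 2.83 ± 0.20 in old mice (7.10-fold, adjusted p = 5.06e-09). By size it was number 103 of all genes in young and number 86 in old mice.

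Nr4a2, or Nurr1, lay at 10.86, 9.85, 10.11, 10.86 and 10.04 log2 in young HSC and at 10.66, 11.12 and 11.01 in old HSC. In young GMP it lay at 8.26, 7.92, 7.96 and 8.02, and in old GMP at 7.99, 8.25 and 7.85. Again no GMP array reached an HSC array. The HSC minus GMP difference was 2.30 ± 0.19 log2 in young (4.93-fold, adjusted p = 1.35e-08) and 2.90 ± 0.23 in old mice (7.47-fold, adjusted p = 1.67e-08).

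Egr1, a zinc finger factor induced by growth factors, was at 10.37, 9.99, 10.08, 10 and 9.94 log2 in young HSC and at 10.38, 10.66 and 10.55 in old HSC. The GMP arrays spread more, over 7.85, 7.80, 7.23 and 8.17 in young and 7.06, 7.95 and 8.28 in old mice. All HSC arrays lay above all GMP arrays. The difference was 2.31 ± 0.20 log2 in young (4.97-fold, adjusted p = 3.65e-08) and 2.77 ± 0.24 in old mice (6.82-fold, adjusted p = 7.76e-08). Nr4a1, Nr4a2 and Egr1 kept their calls at both ages under all 25 alternatives of the analysis.

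Egr2 and Egr3, relatives of Egr1 with the same type of zinc fingers, differed less between the cell types. Egr2 was not called in young mice, at 0.36 log2 (95% confidence interval -0.08 to 0.79), and was higher in HSC of old mice by 1.30 ± 0.25 (2.46-fold, adjusted p = 0.000717). Without old HSC replicate 3, where it was highest, that difference was 0.89 log2, and with array weights in the model it was 0.84, both still called. Egr3 differed by -0.12 log2 in young (interval -0.35 to 0.11) and by 0.25 in old mice (interval -0.03 to 0.53). With array weights Egr2 was called in young mice (0.46, adjusted p = 0.0429) and Egr3 in old mice (0.30, adjusted p = 0.00865).

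**Figure D1:**
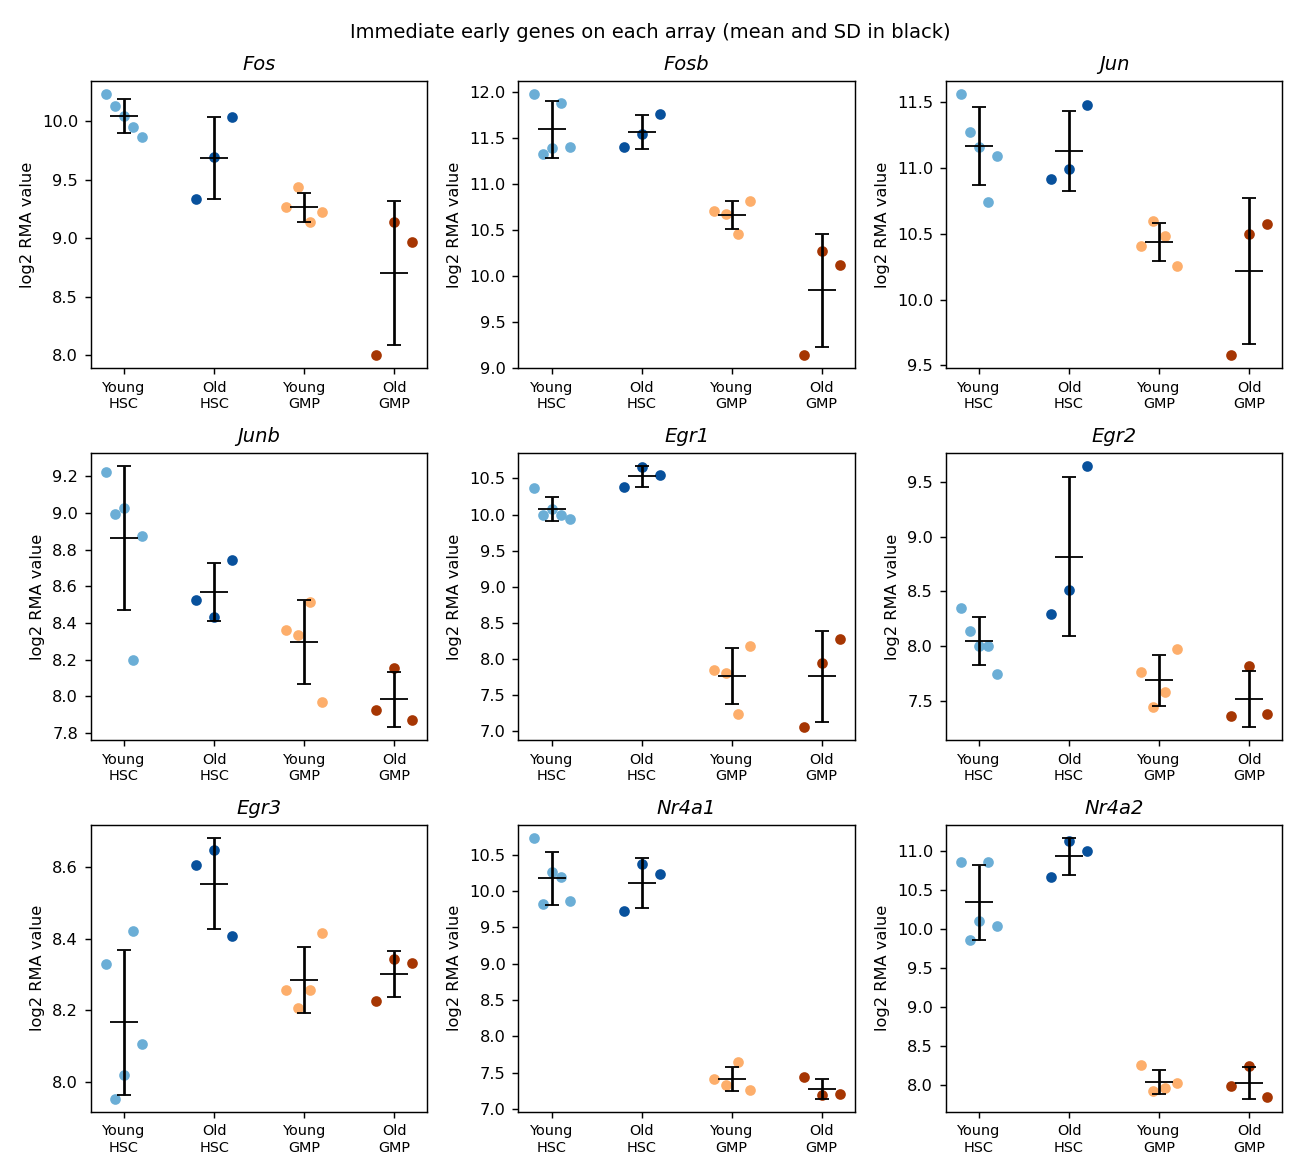
Log2 RMA values of the 9 measured genes on each of the 15 arrays, by group; points are arrays and black bars the mean and SD of 5 young HSC, 3 old HSC, 4 young GMP and 3 old GMP arrays. For Nr4a1, Nr4a2 and Egr1 all HSC arrays lie above all GMP arrays, and Egr2 reaches 9.65 on a single old HSC array. The vertical axes differ between genes and do not start at 0.

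Of the AP-1 genes, Fosb, whose protein pairs with Jun proteins, was at 11.98, 11.32, 11.39, 11.88 and 11.40 log2 in young HSC and 11.40, 11.55 and 11.77 in old HSC. In GMP it lay at 10.70, 10.68, 10.46 and 10.81 in young and at 9.14, 10.27 and 10.12 in old mice. HSC and GMP did not overlap at either age, and the old GMP arrays lay below the young ones. The HSC minus GMP difference was 0.93 ± 0.19 log2 in young (1.91-fold, adjusted p = 0.000978) and 1.73 ± 0.23 in old mice (3.31-fold, adjusted p = 1.54e-05).

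Fos had values of 10.23, 10.13, 10.04, 9.95 and 9.86 log2 in young HSC, 9.33, 9.69 and 10.04 in old HSC, 9.26, 9.43, 9.14 and 9.22 in young GMP and 8.0, 9.14 and 8.97 in old GMP. Within each age the cell types did not overlap, although old HSC replicate 1 lay below young GMP replicate 2. The difference was 0.78 ± 0.18 log2 in young (1.72-fold, adjusted p = 0.00302) and 0.99 ± 0.22 in old mice (1.98-fold, adjusted p = 0.00267). Jun, the main partner of Fos in AP-1, ran from 10.74 to 11.56 log2 over the 8 HSC arrays and from 9.58 to 10.60 over the 7 GMP arrays, with differences of 0.73 ± 0.19 in young and 0.91 ± 0.23 in old mice. Without old GMP replicate 1 the differences in old mice were 0.64 for Fos (adjusted p = 0.0157) and 0.59 for Jun (adjusted p = 0.0492). Both were still called, Jun only just.

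Junb, a Jun protein that restrains proliferation in myeloid cells, was higher in HSC by 0.57 ± 0.17 log2 in young (1.48-fold, adjusted p = 0.0150) and 0.58 ± 0.20 in old mice (1.5-fold, adjusted p = 0.0433). It was the least secure of these calls. In young mice the groups overlapped, since young HSC replicate 4 was at 8.20 and young GMP replicate 3 at 8.52, and without young GMP replicate 4 the difference was 0.46 (adjusted p = 0.0619). In old mice the call was lost without any 1 of 8 arrays (old GMP replicates 1 and 3, the 3 old HSC arrays, young GMP replicates 1 and 2 and young HSC replicate 5), with differences of 0.50 to 0.65 and adjusted p from 0.0526 to 0.144.

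**Figure D2:**
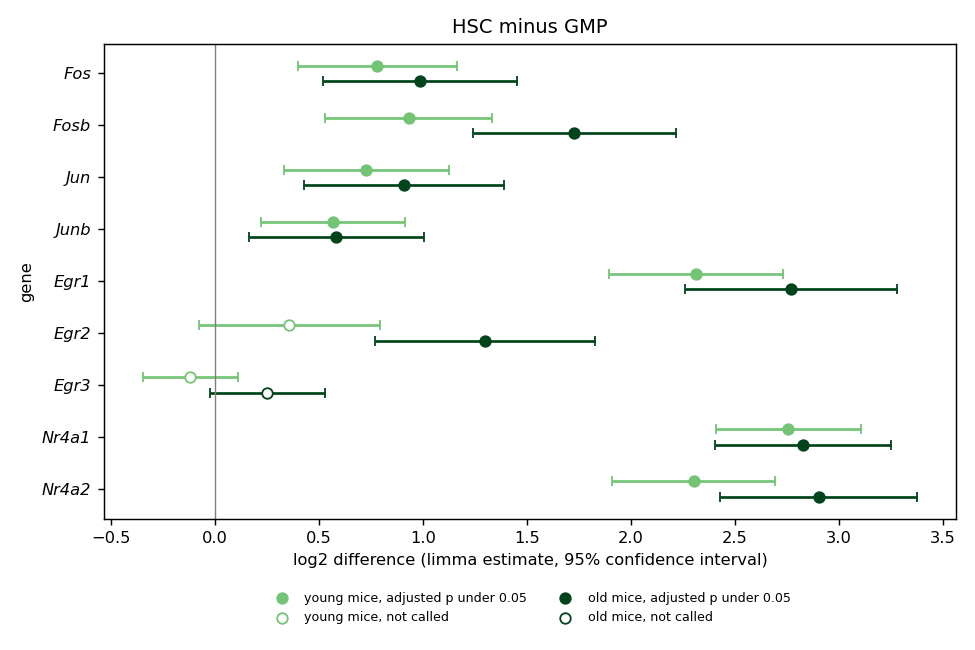
HSC minus GMP differences of the 9 genes on the log2 scale, as limma estimates with 95% confidence intervals, in young (5 and 4 arrays) and old mice (3 and 3 arrays). Filled points are called at an adjusted p under 0.05. Nr4a1, Nr4a2 and Egr1 stand between 2.30 and 2.90, the AP-1 genes between 0.57 and 1.73, and Egr3 is open at both ages.

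Genes that work with these factors were described from lists chosen by function, with earlier results of these data known. Of 31 measured other immediate early genes, 22 were higher in HSC of young mice and 0 lower, against 13.6% and 10.9% of all genes. In old mice 18 were higher and 1 lower, against 9.25% and 13% of all genes. The median differences were 0.70 log2 in young and 0.74 in old mice. The polo-like kinase gene Plk2 was 6.30-fold and 7.63-fold higher in young and old mice (2.66 ± 0.21 and 2.93 ± 0.26 log2), and Rgs1, a regulator of G protein signalling, 8.24-fold and 5.46-fold higher (3.04 ± 0.41 and 2.45 ± 0.50). Nr4a3, the remaining Nr4a receptor gene, was higher by 0.95 ± 0.17 and 0.96 ± 0.21 log2. Of 12 AP-1 relatives 3 were higher at each age, where 13.6% of all genes were in young and 9.25% in old mice. Maff, a small Maf protein gene, differed most, at 2.82-fold and 1.98-fold. The call of Fosl1, a Fos relative, in young mice was lost without any 1 of 5 arrays (young GMP replicates 1, 2 and 4 and young HSC replicates 2 and 5; 0.30 to 0.33 log2) and with only the young groups fitted (adjusted p = 0.0512). That of Atf3, a stress-induced partner of Jun, in old mice was lost without any 1 of 4 (replicates 1 and 3 of old GMP and of old HSC; 0.47 to 0.63 log2).

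Of 9 upstream factors of the serum and cAMP responses, 4 were higher and 1 lower in young HSC, against 13.6% and 10.9% of all genes. In old HSC 2 were higher, against 9.25% of all genes. The serum response factor partner Elk4 was higher by 0.82 ± 0.11 log2 in young and 0.78 ± 0.13 in old mice, and the CREB coactivator Crtc2 by 0.49 ± 0.11 and 0.63 ± 0.14. Of 10 measured heat shock genes, 1 was higher and 2 lower in young HSC, where 13.6% and 10.9% of all genes were, and 1 was higher and 5 lower in old HSC, where 9.25% and 13% were. The Hsp70 gene Hspa1a was 3.04-fold lower in HSC of young mice (-1.60 ± 0.28 log2), whereas Dnajb1, an Hsp40 gene, was 1.54-fold higher (0.63 ± 0.18), a call lost without young GMP replicate 3 (0.56, adjusted p = 0.0575).

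Markers of other cells also differed between HSC and GMP. Over all genes 13.6% were called higher and 10.9% lower in young HSC, and 9.25% and 13% in old HSC. Of 8 megakaryocyte and platelet markers 7 were measured, and all 7 were higher in HSC at both ages, with list means of 7.92 to 8.51 log2 on HSC arrays and 7.0 to 7.36 on GMP arrays. Of 7 endothelial markers, 3 were higher and 1 lower in young and 4 were higher and 1 lower in old HSC. Of 8 macrophage markers, 4 were lower in young and 3 in old HSC, with list means of 6.30 to 6.99 log2 on HSC arrays and 7.55 to 7.71 on GMP arrays. The part of such cells or programmes in the immediate early differences was not tested.

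With age, 2 of the 9 genes were called in stem cells. Egr2 rose 1.71-fold and Egr3 1.31-fold in old HSC, and no gene was called lower, although Fos and Junb were called lower with array weights. Both rises lost their calls with each array's interquartile range in the model and with only the HSC arrays fitted. These 2 of 9 called higher stand against 2.25% of all genes called higher and 9.22% called lower. The median difference of the 9 genes was -0.02 log2, against 0.03 over all genes. Egr1 and Nr4a2 had positive differences and Fos and Junb negative ones that were not called. Old HSC values were also part of the comparison of cell types in old mice, and young HSC values of that in young mice, so those comparisons are not independent.

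Egr2 was at 8.30, 8.51 and 9.65 log2 on the 3 old HSC arrays and at 8.35, 8.14, 8.0, 8.0 and 7.75 on the 5 young ones. Replicate 3 stood well above the other old arrays, and old replicate 1 lay just below young replicate 1. The difference was 0.77 ± 0.23 log2 (adjusted p = 0.0348). Without old HSC replicate 3 it was 0.36 and not called (adjusted p = 0.149), and the call was also lost on leaving out replicate 2 of old HSC or replicate 2, 3 or 5 of young HSC (adjusted p from 0.0617 to 0.0744). It was 0.36 with array weights (adjusted p = 0.0827), and with the spread estimated from HSC alone the adjusted p was 0.0752.

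Egr3 was at 8.61, 8.65 and 8.41 log2 in old HSC and at 8.33, 7.95, 8.02, 8.42 and 8.11 in young HSC. Young replicate 4 lay just above old replicate 3. The difference was 0.39 ± 0.12 log2 (adjusted p = 0.0416). The call was lost without any 1 of 10 arrays (old HSC replicates 1 and 2, young HSC replicates 2, 3 and 5, old GMP replicates 1 and 2 and young GMP replicates 1, 2 and 3), with differences of 0.34 to 0.39 and adjusted p from 0.0515 to 0.188. The GMP arrays enter only through the shared estimate of the spread, and with the spread estimated from HSC alone the adjusted p was 0.113.

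Egr1 did not overlap between ages in HSC, although by 0.01 log2 at the nearest arrays, old replicate 1 and young replicate 1; 5.1% of all genes were higher in old HSC without overlap. Its difference was 0.46 ± 0.22 log2 (interval 0.00 to 0.91, adjusted p = 0.161). Nr4a2 differed by 0.59 ± 0.20 log2 (1.5-fold, interval 0.16 to 1.01, adjusted p = 0.0643) and was called under 6 of 24 alternatives, whose adjusted p ran from 0.0052 to 0.603. Nr4a1 differed by -0.06 log2 (interval -0.44 to 0.32).

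The AP-1 genes were not called with age in HSC as reported, but Fos and Junb were under some alternatives. Fos differed by -0.36 ± 0.20 log2 (interval -0.77 to 0.06, adjusted p = 0.222), and with array weights by -0.65, called lower (adjusted p = 0.00447). Junb differed by -0.30 ± 0.18 (interval -0.67 to 0.08, adjusted p = 0.260). Young HSC replicate 4, at 8.20, had the lowest Junb value of all HSC arrays, and without it the difference was -0.46 and called (adjusted p = 0.0169). Junb was also called lower with the replicate number as a block (-0.46, adjusted p = 0.0186) and with array weights (-0.43, adjusted p = 0.00275), and was at 0.14 with the interquartile range in the model (adjusted p = 0.838). Fosb and Jun differed by -0.02 and -0.04 log2, with intervals from -0.46 to 0.41 and from -0.47 to 0.39.

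Sex-linked signal and the spread of values within arrays moved with age in HSC. Young HSC replicate 1, the only young HSC array with low Xist, had the highest Egr2 and Egr1 values and, level with replicate 4, the highest Nr4a2 value of its group. It was also the highest of its group for Fos, Fosb, Jun, Junb and Nr4a1, whose age differences were negative and not called as reported. This array had the widest interquartile range of all (2.69 log2). Its Egr2 value of 8.35 lay above 1 of the 3 old arrays and its Nr4a2 value of 10.86 above 1 of them, and its Egr3 value of 8.33 below all 3. The part of sex-linked differences was not tested. Of 7 megakaryocyte and platelet markers 1 was higher and 1 lower in old HSC, and of 8 macrophage markers 0 were called. Over all genes 2.25% were called higher and 9.22% lower. With each array's interquartile range in the model, the differences were 0.95 log2 for Egr2 (adjusted p = 0.213) and 0.22 for Egr3 (adjusted p = 0.594), and neither was called. After quantile normalization, which gives all arrays the same spread, Egr2 differed by 0.99 (adjusted p = 0.0162) and Egr3 by 0.62 (adjusted p = 0.0182), both called. Nr4a2 was then also called, at 0.87 (adjusted p = 0.0387). With array weights Egr3 differed by 0.50 (adjusted p = 6.87e-05).

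Of the 31 other immediate early genes, 3 fell and 0 rose in HSC with age, with a median difference of -0.13 log2. The 3 of 31 are a share near the 9.22% of all genes called lower. Dusp2, a phosphatase of MAP kinases, fell 1.63-fold (-0.71 ± 0.19), Rgs2, a regulator of G protein signalling, 1.52-fold (-0.60 ± 0.16) and Dusp6, the ERK phosphatase, 1.45-fold (-0.53 ± 0.13). The Dusp6 call was lost on leaving out old HSC replicate 1 or 2 (adjusted p 0.0808 and 0.0903), the Rgs2 call without 1 of old HSC replicates 1 and 2 and young HSC replicate 2 (-0.58 to -0.44), and the Dusp2 call without any 1 of the old HSC arrays and young HSC replicates 2 and 3 (-0.83 to -0.61). After quantile normalization the differences were -0.57 for Dusp2, -0.31 for Rgs2 and -0.38 for Dusp6, and none of the 3 was called. With the interquartile range in the model they were -0.37 for Dusp2 (adjusted p = 0.591), -0.52 for Rgs2 (adjusted p = 0.343) and -0.39 for Dusp6 (adjusted p = 0.322), and Dusp2 was not called with only HSC fitted (adjusted p = 0.0681). Of 12 AP-1 relatives 1 fell, Maff, 1.51-fold (-0.60 ± 0.17), a call lost without any 1 of old HSC replicates 1 and 2 and young HSC replicates 1, 2, 3 and 5 (-0.58 to -0.54) and after quantile normalization (-0.33). It was also lost with the interquartile range in the model (-0.28, adjusted p = 0.637) and with only HSC fitted (adjusted p = 0.0707). Of 5 Egr and Nr4a relatives and corepressors and of 9 upstream factors 0 were called, and of 10 heat shock genes 1 fell.

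**Figure D3:**
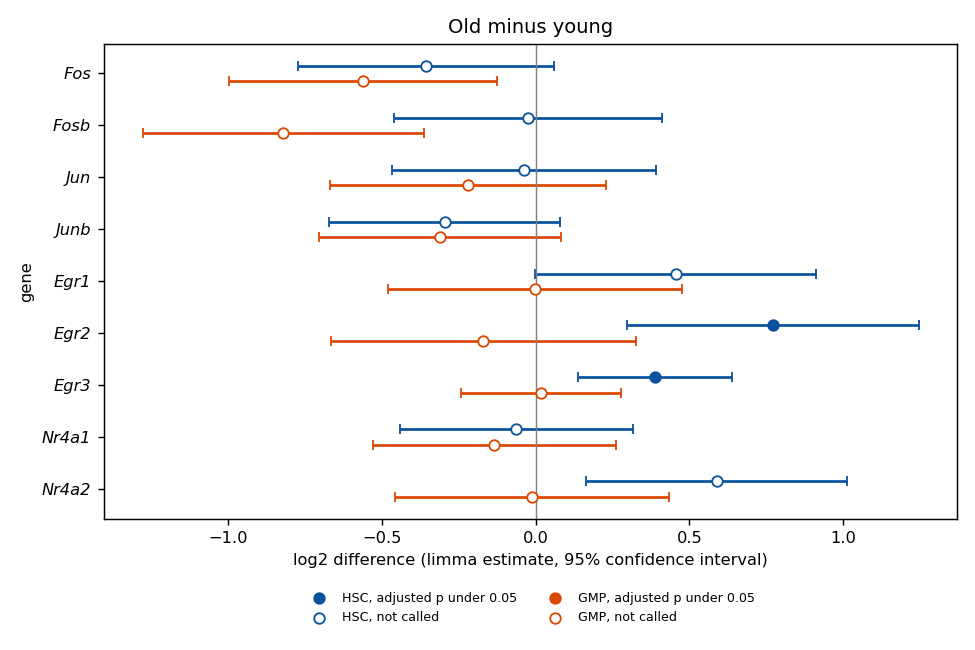
Old minus young differences of the 9 genes on the log2 scale, as limma estimates with 95% confidence intervals, in HSC (3 and 5 arrays) and GMP (3 and 4 arrays). Filled points are called at an adjusted p under 0.05: Egr2 (0.77) and Egr3 (0.39) in HSC and none in GMP. In GMP, Fosb has the lowest estimate, -0.82.

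In GMP no immediate early gene was called with age. Limma called 0 of 19296 genes (0% of all genes), although 870 had an unadjusted p under 0.05, and array weights, the alternative that called most, called 832. Fosb had the lowest value of the 9 genes, a difference of -0.82 ± 0.22 log2 (interval -1.28 to -0.36, adjusted p = 0.653), number 28 of all genes by size. The old and young GMP arrays did not overlap for it, as for 3.72% of all genes that were lower without overlap. Fos differed by -0.56 ± 0.21 log2 (adjusted p = 0.99).

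These GMP differences leaned on 1 array. Old GMP replicate 1 was at 9.14 log2 for Fosb and 8.0 for Fos, while the other old GMP arrays were at 10.27 and 10.12 for Fosb and at 9.14 and 8.97 for Fos. Without it the differences were -0.47 log2 for Fosb and -0.21 for Fos. With array weights in the model they were -0.84 (adjusted p = 0.0133) and -0.66 (adjusted p = 0.0486), and both were called. The remaining 7 genes differed by -0.31 (Junb) to 0.02 log2 (Egr3). Of the 31 other immediate early genes 0 were called; Dusp1, a MAP kinase phosphatase, differed by -0.54 ± 0.21 log2 and Ier2 by -0.50 ± 0.22, and by -0.21 and -0.37 without old GMP replicate 1. With array weights both were called, Dusp1 at -0.69 (adjusted p = 0.0425) and Ier2 at -0.59 (adjusted p = 0.0234).

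The age effects of HSC and GMP were compared directly by subtracting one from the other in the same model. Of the 9 genes 0 were called, against 0.0933% of all genes. The largest differences were in Egr2, 0.94 ± 0.33 log2 (interval 0.26 to 1.63, adjusted p = 0.327), and Fosb, 0.80 ± 0.30 (interval 0.16 to 1.43, adjusted p = 0.380). For Egr3 it was 0.37 ± 0.17 log2 (adjusted p = 0.433). With array weights, Egr3 (0.44, adjusted p = 0.0226) and Fosb (0.77, adjusted p = 0.0453) were called, and Egr2 was not.

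Apart from the groups, most of the genes lay on the same side of the group mean on some arrays. Young HSC replicate 1 was the highest of its 5 arrays for 8 of the 9 genes, and old HSC replicate 1 was the lowest of its 3 arrays for 7. Old GMP replicate 1 was the lowest of its 3 arrays for 6. Old HSC replicate 3 lay above its group mean for 8 genes, as for 26 of the 31 other immediate early genes and all 10 heat shock genes. Young HSC replicate 1 had the widest interquartile range of all arrays (2.69 log2), and old HSC replicate 3 the widest of its group (2.33). The narrowest of their groups were old HSC replicate 2 (1.96) and old GMP replicate 2 (2.27). Replicate 1 was at 2.15 in old HSC and at 2.29 in old GMP. These counts were not set against all genes, and the part of array spread was not tested. The SD left within groups was 0.28 to 0.37 log2 for 8 of the genes and 0.14 for Egr3, against a median of 0.19 over all genes; by this measure Egr2 lay at percentile 96.8 of all genes and Egr3 at percentile 21.2.

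**Figure D4:**
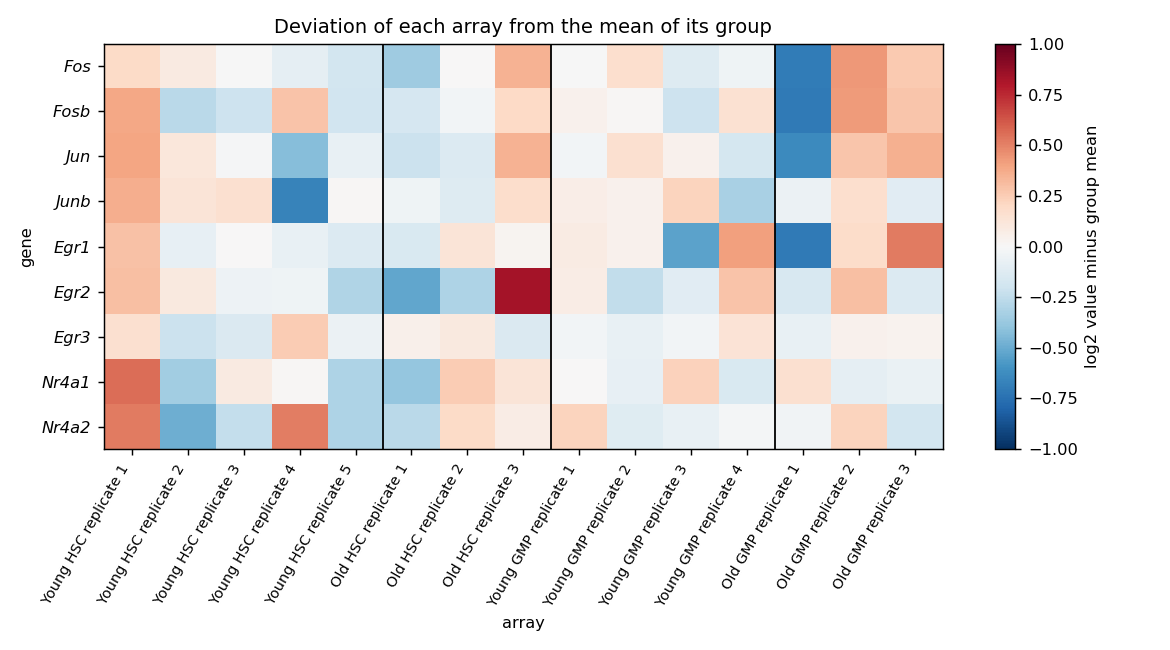
Deviation of each of the 9 genes on each of the 15 arrays from the mean of the array's group, in log2; red is above and blue below the mean, and black lines separate the 4 groups. Young HSC replicate 1 is red for all 9 genes, and old HSC replicate 1 and old GMP replicate 1 are each blue for 8.

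The genes most like Fos over the 15 arrays, outside the 10 genes described, were Dusp1 (Pearson r = 0.97), Crtc2 (0.95) and Klf6 (0.95). Those most like Egr1 were Prkg1 (0.98), Kif21a (0.98) and Erg (0.98), and those most like Nr4a1 were Klf12 (0.99), Impact (0.99) and Zfp532 (0.99). These values are a description, and the 15 points share the division into 2 cell types. Dusp1, like Fos, was highest in young HSC (11.15 ± 0.21 log2, SD, n = 5) and lowest in old GMP (9.91 ± 0.57, n = 3), whereas Klf12, like Nr4a1, was at 8.39 ± 0.41 in young HSC and 8.27 ± 0.03 in old HSC against 5.83 ± 0.07 and 5.77 ± 0.20 in young and old GMP.

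By the 4 group means alone the genes fell into 2 orders, with Egr3 apart, but several neighbouring groups were not separated. Fos, Fosb, Jun, Junb and Nr4a1 were highest in young HSC and lowest in old GMP, with old HSC above young GMP. For Fos and Junb each group overlapped the next in this order. For Fosb, Jun and Nr4a1 old HSC did not overlap young GMP, and for Fosb young GMP did not overlap old GMP either. Young and old HSC overlapped for Fosb, Jun and Nr4a1, with gaps of 0.024, 0.038 and 0.063 log2 that turned sign under some alternatives. Egr1, Egr2 and Nr4a2 were highest in old HSC, followed by young HSC, young GMP and old GMP. For Egr2 each group overlapped the next, and for Nr4a2 old HSC overlapped young HSC. Young and old GMP also overlapped for Egr1 and Nr4a2, with gaps of 0.003 and 0.013 log2 that turned sign under some alternatives. For Egr3 old HSC was highest, at 8.55 ± 0.13 log2 (SD, n = 3), and the other groups lay within 0.14 of each other, from 8.17 ± 0.20 in young HSC to 8.30 ± 0.07 in old GMP.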

How the data were processed

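RNA of 15 sorted cell samples was amplified with a NuGEN whole-transcript kit and hybridised to Affymetrix arrays, per the labels' protocols. The authors deposited log2 expression values for 23309 probe sets, none missing. RMA, affy and limma are named, without version, in the submitters' processing notes, and the log2 scale was read from the values. No filter or genome build is given in the sources used here. Columns were matched to samples by their names, with 0 left over.

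A gene was a probe set with 1 annotated symbol (20728 probe sets; 1174 had several symbols and 1407 none), the brightest of those of a gene over the 15 arrays, which gave 19296 genes. In R 4.3.3, limma 3.58.1 fitted a mean per group to all 15 arrays with default empirical Bayes moderation, with Benjamini-Hochberg adjustment over the 19296 genes and a threshold of 0.05. The code was tested on simulated data. The precision is limited by the number of arrays. Members and lists were chosen with earlier results of these data known. The genes named were the 10 members and, from each of 5 other lists, up to 3 called genes by size of the difference, or up to 2 where none was called. Same-numbered young HSC and GMP arrays deviated together (correlations over genes of 0.29, 0.24, 0.16 and 0.53). Differently numbered ones reached 0.25 (HSC replicate 2 with GMP replicate 1). For old HSC and GMP the same-numbered values were 0.05, 0.23 and 0.42, and a differently numbered pair reached 0.23. Between ages the same-numbered values ran from -0.24 to 0.15, and old HSC replicate 2 with young HSC replicate 4 gave 0.39. In young mice the sex-linked values also went together by number. Xist was low on replicate 1 of both HSC and GMP (4.72 and 5.49 log2). The Y-linked means in HSC and GMP were 7.12 and 7.20 for replicate 2, 8.47 and 8.28 for replicate 3, and 4.94 and 5.20 for replicate 4. A shared source of same-numbered young arrays was not tested. The labels do not state a pairing, and the reported tests used no block, treating the arrays as independent. Fits with the replicate number as a block were alternatives, as were quantile normalization, array weights, the interquartile range as a covariate, a trended robust prior, a filter on dim genes, the mean over a gene's probe sets, a fit of only the groups compared, and leaving out each array or both young arrays numbered 4.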

Additional observations from a re-analysis of the deposited data

How the results depend on the processing

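Of 2425 values of single genes under the alternatives, 58 turned sign, and 0 of these were called either way; where a value below moved, the cause was not tested. The comparison of cell types was the most stable: 7 of the 9 genes in young and 8 in old mice were called under every alternative except array weights, which gave 8 and 9, and leaving out 1 array, which gave 6 to 7 and 7 to 8 (all genes 3919 to 5494 and 3272 to 4824, with 7494 in old mice with array weights against 4292 as reported). Age in HSC, with 2 genes called, gave 0 to 4 when 1 array was left out (all genes 345 to 5312, against 2213 as reported). It gave 4 with array weights (Egr3 and Nr4a2 higher, Fos and Junb lower; 8966 genes), 4 without both young arrays numbered 4 (Egr2, Egr3 and Nr4a2 higher, Junb lower; 6183), 0 with the interquartile range as covariate (105) and 0 with only the groups compared (871), and 1310 genes after quantile normalization. Age in GMP, with 0 genes called, gave 2 with array weights (Fos and Fosb lower; 832 genes), 188 genes without the arrays numbered 4, and 0 to 12 genes when 1 array was left out. The difference between the age effects, with 0 members and 18 genes called, gave 2 (Egr3 and Fosb) and 2407 with array weights, 5 genes with the interquartile range, 145 without the arrays numbered 4, and 0 members and 1 to 192 genes when 1 array was left out; a fit of only the groups compared was not run for it.

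With the replicate number as a block, age in HSC gave 4 of the 9 genes (Egr2, Egr3 and Nr4a2 higher, Junb lower) and 6280 genes, age in GMP 0 and 232, and the difference between the age effects 0 and 41. The block ended no call of the 9 genes between cell types. A block within each age, chosen after seeing the data, also called 7 in young (6121 genes) and 8 in old mice (5392 genes).

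The differences that turned sign follow. Age in HSC was 0.22 for Fosb, 0.24 for Jun, 0.21 for Nr4a1 and 0.074 for Crtc2 after quantile normalization, 0.39 for Jun, 0.14 for Junb, 0.025 for Nr4a1 and -0.081 for Wt1 with the interquartile range, and 0.047 for Fosb without the arrays numbered 4. Age in GMP was 0.002 for Egr1 and 0.047 for Nr4a2 after quantile normalization, 0.047 and 0.057 with the block, 0.063 for Nr4a2 with array weights, 0.006 for Egr1 and -0.016 for Egr3 with the interquartile range, and 0.13 for Egr1 without the arrays numbered 4. The difference between the age effects was 0.12 for Nab1 and -0.043 for Egr4 after quantile normalization, -0.008 for Nr4a1 with the block, -0.069 for Junb, -0.206 for Nr4a1 and 0.073 for Nab1 with array weights, 0.15 for Nab1 with the interquartile range, and -0.044 for Junb without the arrays numbered 4. When 1 array was left out, age in HSC ran from -0.122 to 0.072 for Fosb, -0.212 to 0.068 for Jun, -0.191 to 0.129 for Nr4a1 and -0.216 to 0.086 for Nr4a3. Age in GMP ran from -0.40 to 0.10 for Jun, -0.26 to 0.35 for Egr1, -0.009 to 0.061 for Egr3 and -0.123 to 0.078 for Nr4a2. The difference between the age effects ran from -0.15 to 0.42 for Fos, -0.14 to 0.36 for Jun, -0.15 to 0.12 for Junb, -0.057 to 0.263 for Nr4a1, -0.18 to 0.002 for Nab1 and -0.11 to 0.97 for Hspa1a. Signal over background could not be judged from the RMA values.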
